A study of Homo sapiens with 6 samples.

Results

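The genes described here encode the proteins that choose splice sites in human pre-mRNA, and the kinases that control them: the SR proteins (symbols starting SRSF), the heterogeneous nuclear ribonucleoproteins or hnRNPs (symbols starting HNRNP), the SR-like proteins TRA2A and TRA2B, the CDC-like kinases CLK1 to CLK4, and the SR protein kinases SRPK1 and SRPK2. All protein-coding genes with these names were taken by symbol, with no use of their values, which gave 44 of the 25071 genes in the deposited count table: 14 SR and TRA2 genes, 24 hnRNP genes and 6 kinase genes. HNRNPA1L2, HNRNPCL1 and HNRNPCL4, which have these names in GENCODE 29, had no row among the counts and were not analysed here. Of the 44 genes, 41 passed the filter on low counts and were tested, and the other 3 (HNRNPCL2, HNRNPCL3 and the HNRNPUL2-BSCL2 readthrough gene) did not.

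The measurements come from PLC/PRF/5, a human hepatoma cell line. ARD1 libraries (n = 3) came from cells transfected with a plasmid for overexpression of ARD1 (gene symbol NAA10), an enzyme that acetylates the N-termini of proteins, and control libraries (n = 3) from cells given the control vector, with harvest after 48 hours in both groups. Each library is rRNA-depleted total RNA, so nuclear and incompletely spliced transcripts can contribute to a gene's count. The labels give neither the share of cells that took up plasmid nor whether libraries of a group are separate cultures. The spread that the p-values rest on is therefore that of these libraries and may be technical.

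SR proteins bind short exonic enhancers through an RNA recognition motif and recruit the spliceosome through a domain rich in arginine and serine. CLK kinases, in the nucleus, and SRPK kinases, mainly in the cytoplasm, phosphorylate that domain and so set where the proteins reside and how active they are. hnRNPs coat nascent transcripts, often bind silencers and oppose SR proteins at many exons. Many genes of both families limit their own level through an alternative exon or intron that sends the transcript to nonsense-mediated decay, the pathway that removes mRNAs with an early stop codon.

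Libraries held 21857327 to 25011357 counts, and 3 counts correspond to 0.120 to 0.137 CPM, a gene's count relative to the scaled size of its library, a floor that covers counting error only. NAA10 had 355, 400.2 and 294 CPM in ARD1 libraries, against 35.6, 32.2 and 36.2 CPM in control libraries (log2 fold change 3.34, SE 0.107, adjusted p = 3.53e-12), in the direction its labels give. Control replicate 1 stood apart: a chi-square over genes, per degree of freedom, was 17.6 and 20.5 against the other controls, where all other pairs within a group gave 2.50 to 4.40. Hepatocyte markers were present but moved in both directions: ALB, TF, FGB and AFP were lower in ARD1 libraries, while SERPINA1 (means of 2.17 CPM in ARD1 libraries and 0.535 CPM in control libraries) and APOB (log2 fold change 0.33) were higher. Albumin (ALB) averaged 36.3 ± 3.89 CPM in ARD1 libraries and 315 ± 6.37 CPM in control libraries (SD, n = 3 each). The summed level of the 8 hepatocyte markers was 173 to 195 CPM in ARD1 libraries and 701 to 737 CPM in control libraries. That of 4 endothelial markers was 90.0 to 103 CPM in ARD1 libraries and 69.2 to 82.2 CPM in control libraries. Among these, CDH5 was lower (means of 0.0677 CPM in ARD1 libraries and 33.1 CPM in control libraries) and KDR, PECAM1 and VWF were higher. VWF had 39, 28 and 38 counts in ARD1 libraries and 0, 0 and 2 counts in control libraries. VWF and CDH5 each passed the filter on low counts only through the group where they are high, so their directions are a description. The 6 fibroblast markers summed to 17.6 to 20.2 CPM in ARD1 libraries and 78.0 to 98.6 CPM in control libraries, with COL3A1 and LUM lower and COL1A1 higher. The 4 immune markers summed to 5.32 to 6.15 CPM in ARD1 libraries and 13.8 to 15.1 CPM in control libraries. Transthyretin (TTR) had 0 counts in all ARD1 libraries and 2, 5 and 2 counts in control libraries. No marker in these lists was at 0 in all 6 libraries, and the part of these markers in the results below was not tested. In bulk RNA, fewer cells of a type and less RNA per cell cannot be told apart.

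Upstream sequences of 4 members that recur in the results are shown first, because SRSF1, SRSF3 and HNRNPC were lower and HNRNPH3 was higher in ARD1 libraries. Each is the 250 bases before a RefSeq transcription start (GRCh38.p14), read 5′ to 3′ on the gene's strand. The windows are SRSF1 at chr17:58007247-58007496, minus strand, SRSF3 at chr6:36594112-36594361, plus strand, HNRNPC at chr14:21269443-21269692, minus strand, and HNRNPH3 at chr10:68331443-68331692, plus strand, the most upstream of 3 listed starts. Capitals mark matches, on either strand, to CCAAT (the CCAAT box), GGGCGG (the GC box), CACGTG (an E-box) and TATAAA (the TATA box).
SRSF1: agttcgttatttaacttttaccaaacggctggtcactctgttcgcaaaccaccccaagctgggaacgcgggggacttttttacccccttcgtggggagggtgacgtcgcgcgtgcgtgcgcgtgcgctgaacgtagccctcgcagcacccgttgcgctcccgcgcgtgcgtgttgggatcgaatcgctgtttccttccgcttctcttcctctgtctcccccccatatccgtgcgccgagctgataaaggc
SRSF3: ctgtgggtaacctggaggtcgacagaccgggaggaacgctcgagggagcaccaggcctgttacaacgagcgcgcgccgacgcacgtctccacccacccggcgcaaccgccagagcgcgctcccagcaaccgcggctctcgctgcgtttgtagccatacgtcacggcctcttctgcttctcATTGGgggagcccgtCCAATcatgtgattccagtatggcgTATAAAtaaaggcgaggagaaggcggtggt
HNRNPC: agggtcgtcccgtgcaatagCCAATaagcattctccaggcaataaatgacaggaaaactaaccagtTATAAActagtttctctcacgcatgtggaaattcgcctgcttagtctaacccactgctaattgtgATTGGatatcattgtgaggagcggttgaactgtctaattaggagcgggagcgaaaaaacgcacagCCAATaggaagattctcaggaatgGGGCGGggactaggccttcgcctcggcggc
HNRNPH3: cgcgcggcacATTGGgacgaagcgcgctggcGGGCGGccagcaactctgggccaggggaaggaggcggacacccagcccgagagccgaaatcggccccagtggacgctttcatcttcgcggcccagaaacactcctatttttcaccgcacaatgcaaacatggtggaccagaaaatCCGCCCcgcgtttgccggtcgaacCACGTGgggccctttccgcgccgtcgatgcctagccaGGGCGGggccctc
SRSF1 had no match to these motifs in this window. SRSF3 had 1 TATAAA match and 2 CCAAT boxes, and HNRNPC had 1 TATAAA match, 3 CCAAT boxes and 1 GC box. The TATAAA match of SRSF3 lies near the transcription start, whereas that of HNRNPC lies early in its window, far from the start. The HNRNPH3 window shown had 3 GC boxes, 1 CCAAT box and 1 E-box. Its other windows had 1 and 0 GC boxes and no match to the other motifs. RefSeq windows were listed for 37 of the 41 tested members, 56 windows in all. A GC box was in 60.7% of these 56 windows and in 42.6% of all 35116 windows, a CCAAT box in 39.3% and 32.0%, an E-box in 16.1% and 6.34%, and a TATA box in 10.7% of both sets. The 35116 windows were not limited to tested genes, whereas all windows of members belong to tested genes, so these shares are of unlike sets. Windows of a gene with several starts can overlap. A CCAAT box was found in 11 of the 20 lower members with a window, in 1 of 5 higher members and in 7 of 12 members that did not pass the test. The share per gene was not computed over all genes. The 5 higher members include SRSF12, which passed the filter on low counts only through the ARD1 libraries. A match is a description of the letters and not evidence of binding.

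Most SR protein and hnRNP transcripts were lower in ARD1 libraries, while a few, among them HNRNPH3, HNRNPH1 and CLK1, were higher. Of the 41 tested members, 24 fell and 5 rose at an adjusted p under 0.05 (edgeR's quasi-likelihood test over all genes), and 12 did not pass. Of all 15816 tested genes, 64.6% were called, 32.2% as lower and 32.4% as higher, so the share of members called (70.7%) lay near that of all genes. The share called lower was 58.5% among members, and the share called higher was 12.2%. By size, 13 members fell and 3 rose past 0.5 in log2 fold change, and 44.9% of all genes were called past that size, 22.9% lower and 22.0% higher. In 25 members all 3 ARD1 libraries lay below all 3 control libraries, in 7 they lay above, and in 9 the groups overlapped, and of all genes 69.6% had groups that did not overlap, 34.0% with ARD1 libraries below and 35.6% above. SRSF12, set apart below, is among the higher members in each of these counts.

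The median log2 fold change of the 41 members was -0.26 and that of all genes 0.03, with TMM scaling of library sizes. The scaling bears on the values and on the calls, but the members' median lay below that of all genes with library totals as well. With library totals and no scaling factors the median of all genes was 0.30, that of the members was 0.0041, and the calls were 14 lower and 14 higher, where 70.1% of all genes were called, 22.0% lower and 48.1% higher. The share of called genes that were higher was 50.2% over all genes with TMM and 68.6% with totals. With trends on GC content and transcript length removed per library, the members' median was -0.41, with 29 lower and 4 higher, where 68.2% of all genes were called, 34.6% lower and 33.6% higher. Members were poorer in G and C than the tested genes at large (median GC content of the annotated transcripts 43.5% and 49.2%). Directions below are relative to TMM scaling. The counts called in each family are to be read against the shares of all genes under the same setting. SRSF12, 1 of the 5 higher members, passed the filter on low counts only through the ARD1 libraries and is not counted as support. Under each of the 15 alternative settings run, 17 of the other 28 called members kept the same call: 14 lower (SRSF1, SRSF2, SRSF3, SRSF4, SRSF6, SRSF7, TRA2A, HNRNPA1, HNRNPA1L3, HNRNPA3, HNRNPC, HNRNPL, HNRNPM and HNRNPUL1) and 3 higher (HNRNPH1, HNRNPH3 and CLK1).

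**Figure D1:**
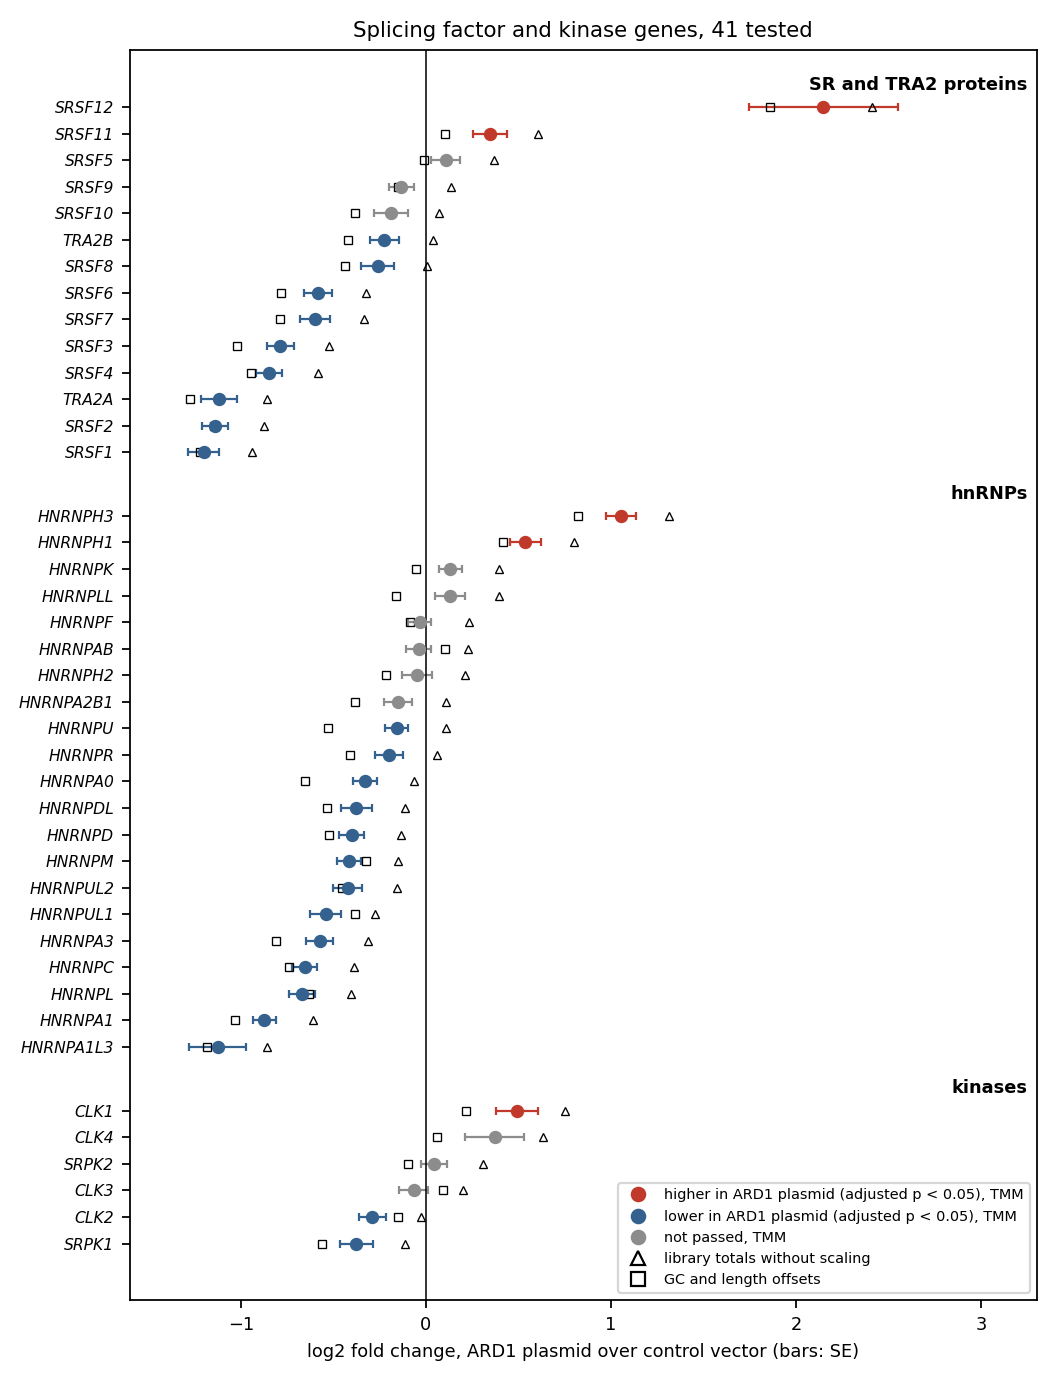
Log2 fold change of each of the 41 tested genes, ARD1 plasmid over control vector, with SE bars (n = 3 per group), coloured by the call at an adjusted p under 0.05 with TMM scaling. Open triangles give the value with library totals and open squares the value with GC and length offsets. SRSF1, SRSF2 and TRA2A lie lowest among SR and TRA2 proteins on all 3 scales, and HNRNPH3 and HNRNPH1 lie above 0 on all 3.

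Among SR and TRA2 proteins, 9 of the 14 fell and 2 rose, where 32.2% of all genes were called lower and 32.4% higher. The median log2 fold change of these 14 was -0.42. With library totals 7 fell and 3 rose (median -0.16), and with GC and length offsets 11 fell and 1 rose (median -0.61). SRSF12, not counted as support, is among the genes that rose in each of these counts, and is the only 1 with the offsets. Their summed level was 1004, 1014 and 1009 CPM in ARD1 libraries, against 1278, 1411 and 1444 CPM in control libraries, a ratio of the means of 0.732. The groups did not overlap in this sum, and control replicate 1 was the lowest control.

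SRSF1, the founding SR protein, which binds purine-rich exonic enhancers and also acts in mRNA export and translation, had 39.7, 42.2 and 39.9 CPM in ARD1 libraries, against 83.5, 94.3 and 102 CPM in control libraries (log2 fold change -1.20, SE 0.0851, adjusted p = 1.46e-08). SRSF2, a marker protein of nuclear speckles, had 66.9, 69.4 and 68.2 CPM in ARD1 libraries, against 141, 155 and 154 CPM in control libraries (log2 fold change -1.14, SE 0.0706, adjusted p = 3.44e-09). The fitted fold, ARD1 over control, was 0.435 for SRSF1 and 0.455 for SRSF2, and for both genes the groups were far apart. In GENCODE 29, on GRCh38, these genes are SRSF1 (ENSG00000136450, chr17:58003360-58007346, minus strand) and SRSF2 (ENSG00000161547, chr17:76734115-76737374, minus strand). Of SRSF1 exon bases, 56.6% are shared with ENSG00000266086 on the same strand, which averaged 0.0625 CPM in ARD1 libraries and 0.155 CPM in control libraries. Exons of MFSD11 lie opposite 36.7% of SRSF2 exon bases, and MFSD11 was at a log2 fold change of -0.053 (adjusted p = 0.576). The strand setting of the counting is not given in the sources used here, so reads of such opposite genes may be mixed.

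SRSF3, the smallest SR protein and an adaptor for mRNA export, had 112, 112 and 109 CPM in ARD1 libraries, against 177, 195 and 202 CPM in control libraries (log2 fold change -0.79, SE 0.0712, adjusted p = 2.08e-07). Its relative SRSF7, which shares that export role, had 55.0, 59.7 and 63.4 CPM in ARD1 libraries, against 85.9, 87.7 and 96.2 CPM in control libraries (log2 fold change -0.60, SE 0.0795, adjusted p = 1.08e-05). SRSF4, the largest of the classical SR proteins, had 57.5, 54.7 and 54.6 CPM in ARD1 libraries, against 103, 99.1 and 98.2 CPM in control libraries (log2 fold change -0.85, SE 0.0703, adjusted p = 7.73e-08). For each of these genes the groups were apart, with the lowest control library above the highest ARD1 library. SRSF6, an enhancer-binding SR protein, had 76.7, 75.2 and 74.0 CPM in ARD1 libraries, against 102, 119 and 117 CPM in control libraries (log2 fold change -0.58, SE 0.0762, adjusted p = 9.15e-06). TRA2A, the vertebrate counterpart of the fly splicing factor transformer-2, had 23.0, 20.5 and 22.1 CPM in ARD1 libraries, against 41.8, 49.2 and 51.6 CPM in control libraries (log2 fold change -1.12, SE 0.0967, adjusted p = 1.24e-07), a fold of 0.460, again with no overlap of the groups.

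Its paralogue TRA2B, the TRA2 gene of higher level, fell by less. TRA2B had 110.0, 114 and 109 CPM in ARD1 libraries, against 116, 138 and 136 CPM in control libraries (log2 fold change -0.22, SE 0.0778, adjusted p = 0.0199), and the sign turned with library totals (0.037, adjusted p = 0.708, range over its alternatives 1.85e-07 to 0.708). Leaving out control replicate 2, ARD1 replicate 1 or ARD1 replicate 3 also ended the TRA2B call, with adjusted p of 0.0599, 0.0754 and 0.0838. SRSF8, an SR gene related to SRSF2, was lower (log2 fold change -0.26, SE 0.0879, adjusted p = 0.0171). It lost that call without ARD1 replicate 2 (adjusted p = 0.0598) or ARD1 replicate 3 (adjusted p = 0.0720), and was at 0.0041 with library totals (adjusted p = 0.967, range over its alternatives 8.11e-05 to 0.967).

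SRSF9, SRSF5 and SRSF10 did not pass. SRSF9 had the highest level per length of the SR proteins and was at 134, 141 and 139 CPM in ARD1 libraries, against 157, 147 and 150.0 CPM in control libraries (log2 fold change -0.13, SE 0.0667, adjusted p = 0.0959). Every ARD1 library was lower than every control library there, by a small margin, and without control replicate 1 the adjusted p was 0.0279 (range over its alternatives 0.0140 to 0.304). Exons of GATC lie opposite 46.2% of SRSF9 exon bases, and GATC rose (log2 fold change 0.58, adjusted p = 1.13e-05). SRSF5 had a log2 fold change of 0.11 (adjusted p = 0.26), and of its alternatives only library totals called it higher (0.37, adjusted p = 0.00239, range over the alternatives 0.00239 to 0.897). SRSF10, which acts as a splicing repressor when dephosphorylated, was at -0.19 (adjusted p = 0.0872), and at -0.31 (adjusted p = 1.68e-06, range over its alternatives 1.10e-06 to 0.557) without control replicate 1.

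SRSF11 and SRSF12 were the SR genes called higher. SRSF11, an SR-related protein found with the factors of the 3′ splice site, had 134, 129.7 and 132 CPM in ARD1 libraries, against 86.4, 111 and 115 CPM in control libraries (log2 fold change 0.35, SE 0.0932, adjusted p = 0.00455). Its value came to 0.22 without control replicate 1, the lowest control, and to 0.10 with GC and length offsets, where the call was lost (adjusted p = 0.0849, range over its alternatives 0.000206 to 0.0849). SRSF12, which can antagonise other SR proteins, was near the limit of detection, with 24, 44 and 36 counts in ARD1 libraries, against 9, 3 and 8 counts in control libraries. These counts correspond to 1.37 ± 0.330 CPM in ARD1 libraries and 0.304 ± 0.142 CPM in control libraries (SD, n = 3 each), and the fitted log2 fold change was 2.15 (SE 0.402, adjusted p = 0.00027). SRSF12 passed the filter on low counts only through the ARD1 libraries, where it is high, so it had to differ and its value is a description. The level in both groups was the lowest of all tested members.

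**Figure D2:**
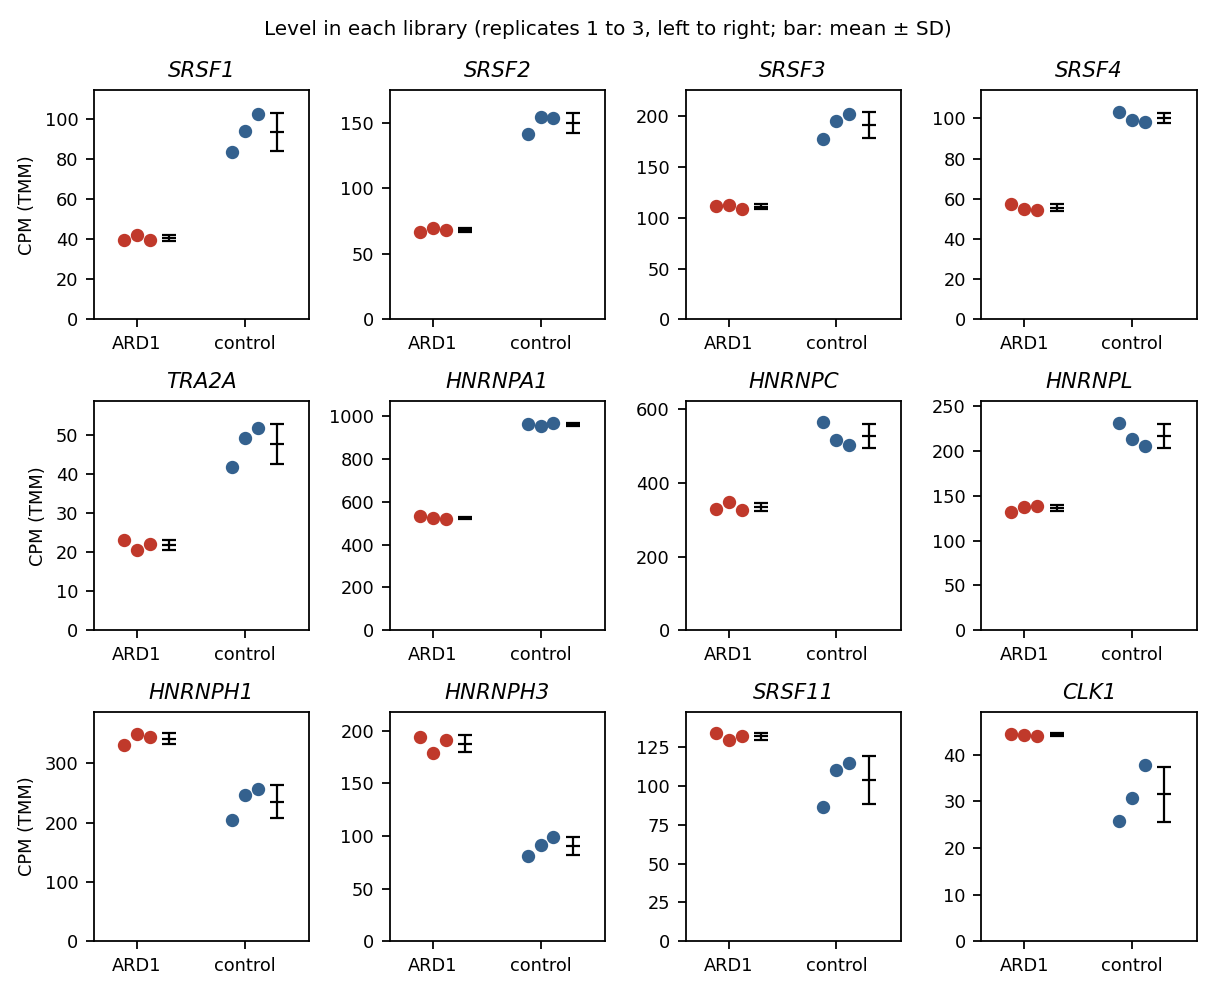
Level of 12 members in each library, in CPM with TMM scaling on axes that start at 0, with the 3 ARD1 libraries left of the 3 control libraries and the mean ± SD beside them. In the first 8 panels every ARD1 point lies below every control point, and in the last 4 (HNRNPH1, HNRNPH3, SRSF11 and CLK1) every ARD1 point lies above.

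Among hnRNPs, 13 of the 21 tested fell and 2 rose, and the median log2 fold change was -0.33. With library totals 7 were lower and 7 higher (median -0.064), where 22.0% of all genes were called lower and 48.1% higher (median 0.30). With GC and length offsets 16 hnRNPs fell and 2 rose (median -0.41). With TMM scaling, the summed level of all 24 hnRNP genes was 5480.1, 5446 and 5416 CPM in ARD1 libraries, against 6500.2, 6425 and 6486 CPM in control libraries. These ranges did not overlap on that scale. The TMM factors were 1.09 to 1.10 in ARD1 libraries and 0.880 to 0.931 in control libraries, so the gap in this sum depends on the scaling.

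In the A/B group, whose members bind exonic and intronic silencers and recognise mRNAs in transport and decay, 4 of 6 genes fell and 0 rose, although HNRNPAB rose with library totals (0.23, adjusted p = 0.00390). HNRNPA1, which opposes SRSF1 in the choice between alternative 5′ splice sites, had 532, 522 and 520.0 CPM in ARD1 libraries, against 961, 955 and 968 CPM in control libraries (log2 fold change -0.87, SE 0.0632, adjusted p = 1.84e-08). It averaged 525 ± 6.18 CPM in ARD1 libraries and 961 ± 6.74 CPM in control libraries (SD, n = 3 each), so its groups were separated by many times their spread. The gene lies at chr12:54280193-54287088, plus strand (ENSG00000135486). HNRNPA3 had 85.7, 90.8 and 83.5 CPM in ARD1 libraries, against 122, 130.3 and 135 CPM in control libraries (log2 fold change -0.57, SE 0.0718, adjusted p = 5.96e-06). HNRNPA1L3, a gene copy closely similar to HNRNPA1, had 3.14, 3.07 and 3.26 CPM in ARD1 libraries, against 7.51, 6.04 and 7.14 CPM in control libraries (log2 fold change -1.13, SE 0.154, adjusted p = 1.47e-05), and reads of HNRNPA1 may be counted there or the reverse.

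HNRNPA0, a binder of AU-rich elements, was lower (log2 fold change -0.33, SE 0.0661, adjusted p = 0.000487), at -0.65 with GC and length offsets and not passing with library totals (-0.064, adjusted p = 0.327, range over its alternatives 5.24e-08 to 0.327). HNRNPA2B1, which binds RNA for transport and is among the highest hnRNPs, did not pass (-0.15, adjusted p = 0.0907). Its groups overlapped through control replicate 1, and without that library it was at -0.23 (adjusted p = 1.06e-05, range over its alternatives 5.35e-07 to 0.260), while with library totals its sign turned. HNRNPAB, a related protein with roles in transcription and RNA transport, was at -0.04 (adjusted p = 0.614), and its sign depended on the scaling.

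HNRNPC, which forms tetramers on nascent RNA and binds uridine tracts, had 331, 348 and 328 CPM in ARD1 libraries, against 565, 518 and 503 CPM in control libraries (log2 fold change -0.66, SE 0.0694, adjusted p = 1.08e-06). HNRNPL, which binds CA repeats, had 132, 138 and 138 CPM in ARD1 libraries, against 232, 213 and 206 CPM in control libraries (log2 fold change -0.67, SE 0.0701, adjusted p = 9.20e-07). Both were lower in every ARD1 library. The paralogue of HNRNPL, HNRNPLL, known for its control of CD45 splicing in lymphocytes, was at 0.13 (adjusted p = 0.175), with groups that overlapped, and it was called higher with library totals (0.39, adjusted p = 0.00146) and lower with GC and length offsets (-0.16, adjusted p = 0.0292), with 0.470 as the highest adjusted p over its alternatives.

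HNRNPD, also called AUF1, which binds AU-rich elements and guides mRNA decay, had 177, 180.0 and 170.2 CPM in ARD1 libraries, against 244, 223 and 228 CPM in control libraries (log2 fold change -0.40, SE 0.0677, adjusted p = 0.00011). With library totals this call was lost by a small margin (-0.13, adjusted p = 0.0502, range over its alternatives 5.46e-09 to 0.0502). Its relative HNRNPDL was at -0.38 (adjusted p = 0.00126) and -0.11 with library totals (adjusted p = 0.291, range 1.47e-09 to 0.291). HNRNPM, a binder of GU-rich RNA, had 211, 201 and 202 CPM in ARD1 libraries, against 285, 264 and 270.0 CPM in control libraries (log2 fold change -0.41, SE 0.0661, adjusted p = 6.37e-05). All 3 genes had ARD1 libraries below all control libraries.

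The 3 tested members of the U group also fell. HNRNPUL1, of which control replicate 1 had the highest level, had 407, 398 and 386 CPM in ARD1 libraries, against 657, 548 and 529 CPM in control libraries (log2 fold change -0.54, SE 0.0820, adjusted p = 3.83e-05). HNRNPUL2 was at -0.42 (SE 0.0767, adjusted p = 0.000203), a call lost with library totals (-0.16, adjusted p = 0.0646, range over its alternatives 6.96e-07 to 0.0646). Of its exon bases, 44.1% are shared with the HNRNPUL2-BSCL2 readthrough gene, which had 7 counts or fewer in each group. HNRNPU, a nuclear scaffold protein that binds RNA and chromatin, was at -0.16 (adjusted p = 0.0383), a call lost without control replicate 2 or any of the ARD1 replicates (adjusted p = 0.0732 to 0.158, range over its alternatives 8.28e-07 to 0.158) and turned to 0.11 with library totals. HNRNPR, related to the mRNA-binding protein SYNCRIP, was of the same kind. HNRNPR had 156, 163 and 158 CPM in ARD1 libraries, against 165, 189 and 195 CPM in control libraries (log2 fold change -0.20, SE 0.0751, adjusted p = 0.029), was at 0.061 with library totals, and passed in no fit that left out a library other than control replicate 1 (adjusted p = 0.0577 to 0.113, range over its alternatives 1.87e-07 to 0.513). Upper-quartile scaling ended the calls of HNRNPU (adjusted p = 0.112), HNRNPR (adjusted p = 0.0755) and TRA2B (adjusted p = 0.0517).

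The F/H group, which binds runs of guanines, had 2 of 4 genes higher and 0 lower. All 4 were higher on library totals, where 48.1% of all genes were called higher. HNRNPH2 was lower (-0.22, adjusted p = 0.000682) with GC and length offsets. The group summed to 898, 894 and 901 CPM in ARD1 libraries, against 657, 720.2 and 735 CPM in control libraries. HNRNPH3, a short member linked to the splicing arrest of early heat shock, had 194, 179 and 191 CPM in ARD1 libraries, against 81.3, 91.4 and 98.9 CPM in control libraries (log2 fold change 1.05, SE 0.0803, adjusted p = 3.21e-08). HNRNPH1 had 331, 349 and 344 CPM in ARD1 libraries, against 204, 246 and 256 CPM in control libraries (log2 fold change 0.54, SE 0.0830, adjusted p = 4.80e-05). For both genes all ARD1 libraries lay above all controls, and they are the hnRNP genes that rose. HNRNPH3 is ENSG00000096746, chr10:68331174-68343191, plus strand, and HNRNPH1 is ENSG00000169045, chr5:179614178-179634784, minus strand. HNRNPF had the highest level per length of this group in control libraries, and in ARD1 libraries it differed from HNRNPH1 by less than their summed SD. HNRNPF had 267, 266 and 261 CPM in ARD1 libraries, against 278, 269.9 and 266 CPM in control libraries (log2 fold change -0.035, SE 0.0635, adjusted p = 0.65), and with library totals it was called higher (0.23, adjusted p = 0.00223, highest over its alternatives 0.915). HNRNPH2 was at -0.049 (adjusted p = 0.61), and at -0.14 (adjusted p = 0.0109, range over its alternatives 0.000682 to 0.949) without control replicate 1. HNRNPK, which binds cytosine-rich RNA and DNA through KH domains, had 856, 864 and 851 CPM in ARD1 libraries, against 800.2, 771 and 775 CPM in control libraries (log2 fold change 0.13, SE 0.0632, adjusted p = 0.0814). All 3 ARD1 libraries were above the controls for HNRNPK, and leaving out control replicate 1 brought it past the threshold (adjusted p = 0.00285, with 2.99e-05 to 0.460 over its alternatives), but it was at -0.052 with GC and length offsets.

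The 3 untested members had almost no counts. HNRNPCL2 had 0, 3 and 1 counts and HNRNPCL3 had 0, 2 and 0 counts in ARD1 libraries, and both had 0 in all control libraries. They are close copies of HNRNPC, so reads of either could be assigned to the other.

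Per length of the principal transcript, the highest member was HNRNPK in ARD1 libraries and HNRNPC in control libraries. HNRNPC averaged 196 ± 6.56 CPM per kb in ARD1 libraries and 308 ± 18.7 in control libraries (SD, n = 3 each). HNRNPK averaged 291 ± 2.22 CPM per kb in ARD1 libraries and 266 ± 5.36 in control libraries. In ARD1 libraries HNRNPC and HNRNPA2B1 (189 ± 5.96 CPM per kb) were neighbours that differed by less than their summed SD. HNRNPA1, the third highest in controls, averaged 127 CPM per kb in ARD1 libraries and 233 in control libraries. SRSF9 was the highest SR protein, with 115 ± 2.93 CPM per kb in ARD1 libraries and 126 ± 4.22 in control libraries, and it was above HNRNPA1 in neither group. HNRNPH3 averaged 80.3 ± 3.48 CPM per kb in ARD1 libraries and 38.7 ± 3.77 in control libraries, which set it above SRSF10 (60.4 CPM per kb in ARD1 libraries and 68.8 in control libraries) in ARD1 libraries and below it in control libraries. SRSF1 averaged 26.8 ± 0.918 CPM per kb in ARD1 libraries and 61.7 ± 6.27 in control libraries, and SRSF2, SRSF3, SRSF4 and SRSF7 lay within 23.3 to 26.3 CPM per kb in ARD1 libraries and 36.1 to 52.0 CPM per kb in control libraries.

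**Figure D3:**
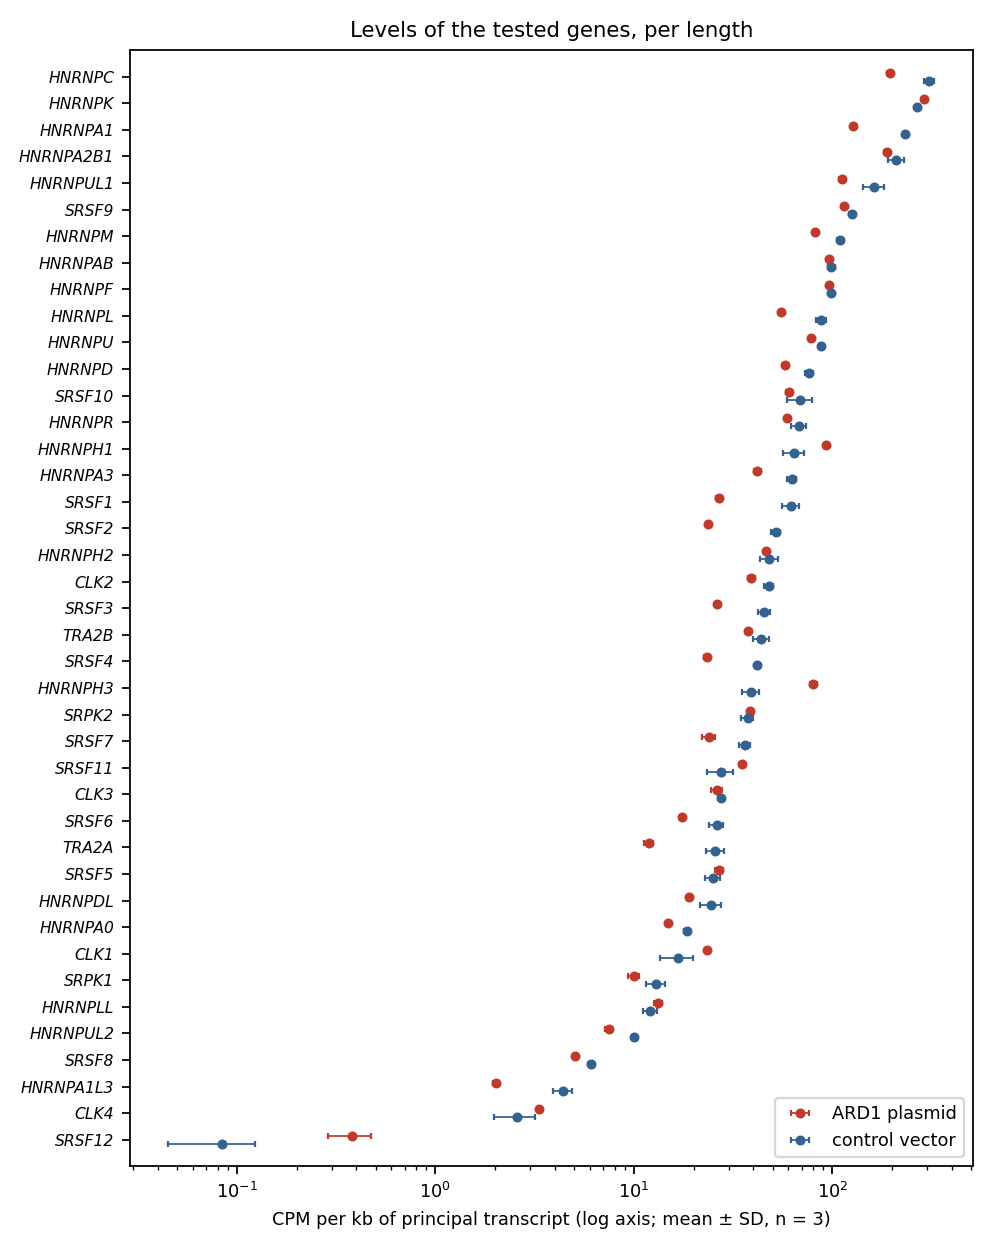
CPM per kb of principal transcript on a log axis for each tested gene, mean ± SD of 3 libraries per group, ordered by the level in control libraries. SRSF1, SRSF2, SRSF3, SRSF4 and TRA2A stand left of their controls, and HNRNPH3 stands right of its own.

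Of 6 kinase genes 1 rose and 2 fell, and their median log2 fold change was -0.011. With library totals 4 kinase genes rose (CLK1, CLK3, CLK4 and SRPK2) and 0 fell (median 0.25). On that scale 48.1% of all genes were called higher and 22.0% lower (median 0.30), so the kinase median lay near that of all genes. With TMM scaling, their summed level was 359, 376 and 361 CPM in ARD1 libraries, against 352, 387 and 398 CPM in control libraries, so the groups overlapped on that scale. CLK1, the kinase that releases SR proteins from nuclear speckles and whose own transcript is held back by retained introns under normal growth, had 44.5, 44.3 and 44.0 CPM in ARD1 libraries, against 25.8, 30.8 and 37.8 CPM in control libraries (log2 fold change 0.49, SE 0.112, adjusted p = 0.00137). All ARD1 libraries were above all controls, the controls spread more widely, and with GC and length offsets the value came to 0.22. CLK1 is ENSG00000013441, chr2:200853009-200864744, minus strand.

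CLK2, the CLK of highest level per length, had 74.8, 79.1 and 73.0 CPM in ARD1 libraries, against 87.9, 91.8 and 97.8 CPM in control libraries (log2 fold change -0.29, SE 0.0733, adjusted p = 0.00293). That call was lost with library totals (-0.026, adjusted p = 0.766, range over its alternatives 1.33e-06 to 0.766). CLK3 was at -0.066 (adjusted p = 0.482), and at 0.20 with library totals (adjusted p = 0.0286, range over its alternatives 0.0286 to 0.837). CLK4, the closest relative of CLK1, had 8.58, 8.40 and 8.74 CPM in ARD1 libraries, against 4.82, 7.51 and 7.54 CPM in control libraries (log2 fold change 0.37, SE 0.159, adjusted p = 0.0526). Its ARD1 libraries were all above its controls, but it passed in 7 of the 15 alternatives and came to 0.18 (adjusted p = 0.232, range over its alternatives 0.00652 to 0.664) without control replicate 1.

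SRPK1, the main kinase for SRSF1 in the cytoplasm, was lower (log2 fold change -0.38, SE 0.0902, adjusted p = 0.00201), with ARD1 libraries at 42.9 to 48.6 CPM and controls at 52.7 to 65.5 CPM. This call was lost with library totals (-0.11, adjusted p = 0.320, range over its alternatives 6.19e-08 to 0.320). SRPK2 was the SRPK gene of higher level, with 143, 143 and 142 CPM in ARD1 libraries, against 128, 141 and 146 CPM in control libraries (log2 fold change 0.043, SE 0.0709, adjusted p = 0.609). SRPK2 groups overlapped, its sign turned without control replicate 1, and with library totals it was called higher (adjusted p = 0.00291, range over its alternatives 0.00291 to 0.790).

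At least 1 transcript marked for nonsense-mediated decay was annotated in GENCODE 29 for 32 of the 41 tested members (78.0%) and for 5575 of 15238 annotated tested genes (36.6%). All members are protein-coding, whereas the 15238 genes were not limited to protein-coding genes, so these shares are of unlike sets. Among members such a transcript was annotated for 19 of 24 that fell, 4 of 5 that rose and 9 of 12 that did not pass. SRSF12, not counted as support, is among the 4. Counts per gene do not separate such transcripts from coding ones. Under their own names, 20 members have processed or other pseudogene copies in GENCODE 29, 129 in all, of which HNRNPA1 has 74 and HNRNPA3 has 16. None of these copies had a row among the counts, so how reads from them were assigned is not known from the values.

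Other parts of the splicing machinery moved in both directions. Of 195 tested splicing and decay factors outside the 3 families, 67 fell and 47 rose, and the median log2 fold change was -0.028. Of all genes 32.2% were called lower and 32.4% higher, and the counts of each list below are to be read against these shares. The 3 most changed genes with at least 5 CPM are named for each list, with their log2 fold changes. Of 12 U1 snRNP proteins and cofactors, which recognise the 5′ splice site, 4 fell and 0 rose: SNRPA (-1.41), SNRNP70 (-0.80) and TIA1 (-0.51) led. With library totals 2 of these U1 genes fell and 6 rose. Of 19 factors of the U2 snRNP and 3′ splice site, 8 fell and 2 rose, led by SF3A2 (-1.13), PUF60 (-0.84) and SF1 (-0.71), and with library totals 6 fell and 5 rose. Of 15 Sm and LSm proteins, which form the snRNP cores, 7 fell and 3 rose, with LSM2 (-0.67), SNRPD3 (-0.63) and SNRPF (-0.44) lower, and with library totals 2 fell and 7 rose.

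The tri-snRNP and catalytic core had 9 of 28 lower and 6 higher, with BUD31 (0.90) and CDC5L (0.68) higher and XAB2 (-0.51) lower, against 3 lower and 17 higher with library totals. SR-related coactivators had 6 of 33 lower and 9 higher (4 lower and 18 higher with library totals, 12 lower and 8 higher with GC and length offsets), among them SRRM3 (-1.47), RSRP1 (0.81) and CDK12 (0.68), a kinase of RNA polymerase II. Exon junction and nonsense-mediated decay factors had 2 of 17 lower and 6 higher (0 lower and 11 higher with library totals, 6 lower and 10 higher with GC and length offsets), led by SMG1 (1.10), the kinase that phosphorylates UPF1, and by UPF3B (0.92) and UPF3A (0.57). Splicing regulators outside the families had 21 of 50 lower and 15 higher (12 lower and 23 higher with library totals). KHDRBS3, an RNA-binding protein of the STAR family, had 15.6, 15.9 and 15.3 CPM in ARD1 libraries, against 3.37, 3.33 and 2.87 CPM in control libraries (log2 fold change 2.29), and RBM3, a cold-inducible RNA-binding protein, had 53.1, 49.7 and 49.8 CPM in ARD1 libraries, against 164, 164 and 175 CPM in control libraries (log2 fold change -1.72). PCBP4, of the poly(C)-binding proteins, was at -1.26. The last list holds 21 further genes: kinases and phosphatases of SR proteins, the phosphatase subunits PPP1R8 and PPP1R10, and TNPO3. Of these 21 genes 10 fell and 6 rose (6 fell and 11 rose with library totals), and DYRK1B (-1.06), AKT2 (-0.93) and AKT1 (-0.86) changed most. With library totals the 195 genes gave 35 lower and 98 higher, where 22.0% of all genes were called lower and 48.1% higher. The counts of each list with library totals are to be read against these shares. Whether the families differ from these lists was not tested.

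**Figure D4:**
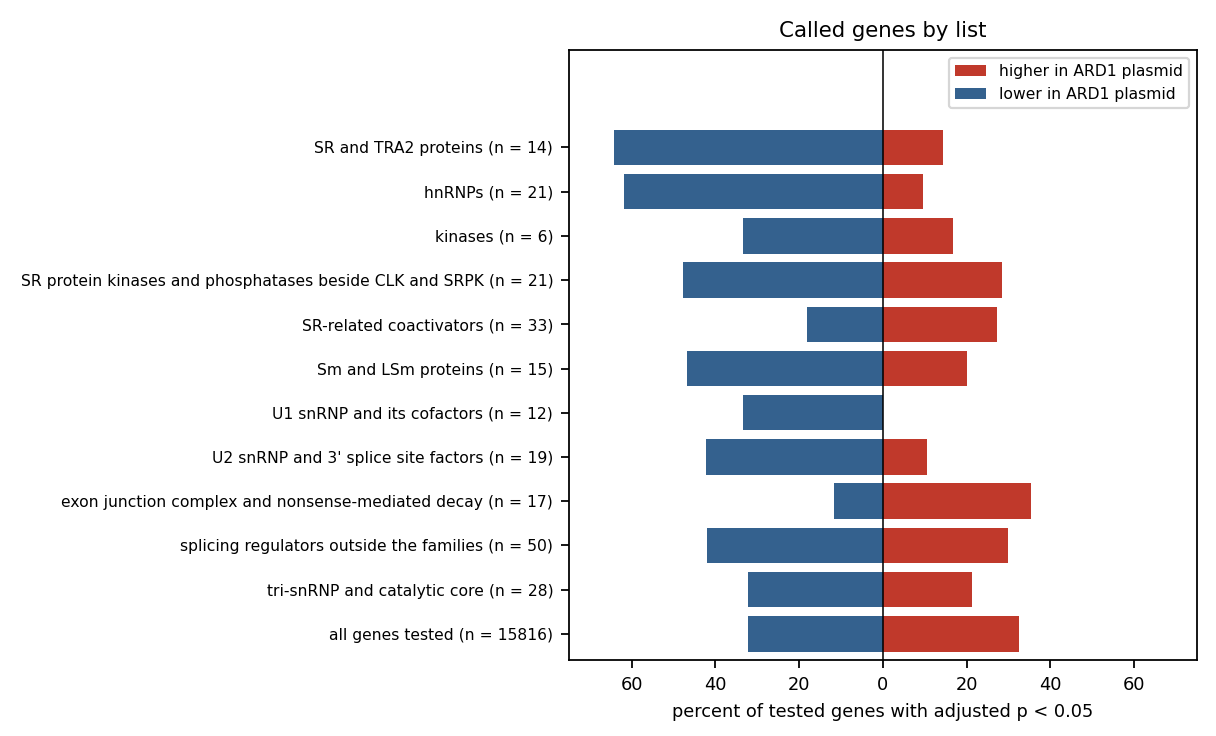
Percent of the tested genes in each list with an adjusted p under 0.05, lower in ARD1 libraries to the left of 0 and higher to the right, with TMM scaling and n as tested. SR and TRA2 proteins (9 of 14) and hnRNPs (13 of 21) have the longest bars to the left, and over all genes the bars are 32.2% and 32.4%.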

How the data were processed

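The tools named are cutadapt 4.6 and STAR 2.7.11b, with GRCh38 as the build, per the submitters' processing notes. Per the labels' protocols, rRNA-depleted RNA went into a directional library kit. For the counting program, its strand setting and its annotation, the entry is "not given in the sources used here". Raw counts were deposited by the authors, as whole numbers for each Ensembl gene ID in each of 6 libraries, without normalization, and every gene listed has at least 2 counts in all. Symbols came from a names table (25052 of 25071 IDs matched), and gene types, coordinates, transcript lengths and GC content from GENCODE 29.

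Counts were filtered with edgeR's filterByExpr (15816 genes kept, 9255 removed), scaled by TMM and tested in 1 quasi-likelihood fit of the 6 libraries (edgeR 4.0.16 under R 4.3.3). Adjusted p-values are Benjamini-Hochberg values over all tested genes, with a threshold of 0.05. Groups and replicate numbers came from sample titles. Each fold change puts the ARD1 plasmid over the control vector. Standard errors were derived from the F statistic. The fit was tested on simulated data. The principal transcript is the APPRIS principal isoform, the longest where several are tagged. The offsets are loess trends per library on GC content, then length, for the 96.3% of tested genes with both.

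Alternatives were RLE and upper-quartile scaling, library totals, GC and length offsets, DESeq2 1.42.0, limma-voom (limma 3.58.1), 2 other filters, the replicate number as a block, each library left out, and a size limit of 0.5 on the log2 fold change. Values in every library are given for called members of at least that size and for the highest member per length of each family. Members, gene lists and motifs were chosen with earlier results of these data known.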

Additional observations from a re-analysis of the deposited data

How the results depend on the processing

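Counts of lower members ranged from 20 to 28, and of higher members from 5 to 6, when 1 library was left out, with 28 lower without control replicate 1. RLE scaling, DESeq2, and a filter of 1 CPM in 3 libraries gave 24 lower and 5 higher, as in the fit reported. Library totals gave 14 lower and 14 higher, where 22.0% of all genes were called lower and 48.1% higher. A size limit of 0.5 on the log2 fold change gave 13 lower and 3 higher members. Medians with library totals were 0.0041 for all members, -0.16 for SR and TRA2 proteins, -0.064 for hnRNPs and 0.25 for kinases, against 0.30 for all genes. With GC and length offsets they were -0.41, -0.61 and -0.41 for the first 3. For hnRNPs the median was -0.29 with upper-quartile scaling, and it ranged from -0.36 to -0.31 with 1 library left out. Splicing factors outside the families came to 98 higher and 35 lower with library totals, where 48.1% of all genes were called higher and 22.0% lower. With 1 library left out these counts ranged from 40 to 59 higher and from 57 to 80 lower. Over all genes, leaving out a library gave 4586 to 5414 higher and 4685 to 5570 lower. For members' medians that range was -0.31 to -0.25 for all 41, -0.48 to -0.41 for SR and TRA2 proteins and -0.039 to 0.010 for kinases.

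Signs turned with library totals for CLK3 (0.20), HNRNPA2B1 (0.11), HNRNPAB (0.23), HNRNPF (0.23), HNRNPH2 (0.21), HNRNPR (0.061), HNRNPU (0.11), SRSF10 (0.072), SRSF8 (0.0041), SRSF9 (0.13) and TRA2B (0.037). They turned with GC and length offsets for CLK3 (0.091), HNRNPAB (0.10), HNRNPK (-0.052), HNRNPLL (-0.16), SRPK2 (-0.10) and SRSF5 (-0.0088), with upper-quartile scaling for HNRNPAB (0.0029) and HNRNPF (0.0083), and without control replicate 1 for SRPK2 (-0.022, with 0.054 as the highest value of that gene with 1 library left out). Leaving out the TMM factors moved all genes up by a similar amount (median 0.30, against 0.03 with TMM scaling). The cause of the other turns was not tested.

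Same-numbered libraries did not deviate together (correlations 0.017, -0.036 and 0.034), and not every library correlated best with its own number. With the replicate block 23 members were lower and 6 higher, HNRNPU no longer passing (adjusted p = 0.0703) and CLK4 passing (adjusted p = 0.0257). The planned addition of pseudogene counts was not run, since no such copy had a row. For SRSF12 and the untested members the counts set the precision.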

Other observations

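The antisense and divergent noncoding genes beside members, HNRNPK-AS1 and HNRNPD-DT, stayed below the filter on low counts. HNRNPK-AS1 was at 0, 0.375 and 0.0806 CPM in ARD1 libraries, against 0.0910, 0.143 and 0.135 CPM in control libraries. HNRNPD-DT was at 0.126, 0.0750 and 0.201 CPM in ARD1 libraries, against 0.182, 0.0475 and 0.0898 CPM in control libraries. In both genes the groups overlapped.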
